A study of Mus musculus with 7 samples.

Results

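Pan-leukocyte genes are genes that blood and immune cells of nearly every type transcribe and that most other tissues do not. The 10 described here are Ptprc, Ptprcap, Coro1a, Cd52, Laptm5, Arhgdib, Rac2, Lcp1, Cd53 and Cd37, taken by symbol from the 56422 symbols of the table, with the TPM of each gene summed over its transcript rows. TPM, a length-normalised share of transcripts, is scaled to the same total in each library. All 10 were present and all 10 passed the filter (TPM no lower than 1 in 3 or more libraries). They were compared between the groups, with Cd3e, the epsilon chain of the CD3 complex of the T cell receptor, as a T cell reference.

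The samples were mouse cells labelled as CD8+ T cells, isolated from ascites, the fluid that collects in the abdomen, in a mouse model of peritoneal metastasis. They came from a series on mannose, PD-1 blockade and ovarian cancer. Poly(A) RNA of 4 libraries without treatment (controls 1 to 4) and 3 libraries from co-treatment with propionate and butyrate, fermentation products of the gut flora, was sequenced. The treated libraries are called treated 1, treated 2 and the third treated library, whose column carries a number that matches no treated sample. Tumour model, strain, age, doses and sorting are not given in the labels used here. The labels also leave unsaid whether libraries are separate animals, so that all p-values refer to the variation among these 7 libraries, part or all of which may be technical.

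CD45, the product of Ptprc, is a tyrosine phosphatase of the cell surface that removes the inhibitory phosphate from Src-family kinases and so sets the threshold of antigen receptor signalling. It is the usual surface mark by which leukocytes are told from other cells. Most of the other genes encode small membrane proteins or the haematopoietic version of a protein that other cells make from a sister gene, such as coronin, plastin and Rac. T cells, macrophages, B cells and neutrophils all carry most of these transcripts. The summed level of these transcripts is therefore often read as the immune share of a mixed sample, whereas Cd3e marks T cells. In bulk RNA, fewer cells of a type and less RNA per cell cannot be told apart.

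The samples held transcripts of other cells beside those of T cells. The 15 T cell genes summed to between 141 and 246 TPM in controls and to between 689 and 2921 in treated libraries. The 15 macrophage and monocyte genes summed to between 6284 and 15300 TPM in controls and to between 3485 and 4257 in treated libraries, with Apoe and Lyz2 the most abundant, and 0 of the 15 was at 0 throughout. Control 3 had the highest macrophage sum and the lowest T cell sum, and the third treated library gave 32.9% of its TPM to mitochondrially encoded genes against 13.6% to 18.2% in the other libraries. Counts of called genes are given with and without these libraries.

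The stretch before the start of transcription is shown for 3 of the 6 members that shared a letter string there (Ptprc, with 2 matches in the stretch, and the tetraspanins Cd53 and Cd37), for Coro1a, which lacked it, and for Cd3e. RefSeq promoter windows of GRCm38.p6, an earlier build than that of the deposited values, existed for 7 of the 10 members and not for Ptprcap, Cd52 and Rac2. Each line gives 180 bases before the start and 30 from it, 5′ to 3′ on the gene's strand, and capitals mark GGAAGT or, where it lies on the other strand, ACTTCC.
Ptprc, chr1:138175276-138175485, minus strand: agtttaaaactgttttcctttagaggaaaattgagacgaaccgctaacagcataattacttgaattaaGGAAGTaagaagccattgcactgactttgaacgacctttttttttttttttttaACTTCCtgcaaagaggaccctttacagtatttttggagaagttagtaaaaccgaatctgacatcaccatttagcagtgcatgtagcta
Cd53, chr3:106790120-106790329, minus strand: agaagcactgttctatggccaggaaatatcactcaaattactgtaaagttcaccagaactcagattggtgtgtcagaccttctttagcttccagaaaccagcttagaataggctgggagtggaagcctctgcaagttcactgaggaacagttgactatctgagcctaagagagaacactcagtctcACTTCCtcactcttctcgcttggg
Cd37, chr7:45238810-45239019, minus strand: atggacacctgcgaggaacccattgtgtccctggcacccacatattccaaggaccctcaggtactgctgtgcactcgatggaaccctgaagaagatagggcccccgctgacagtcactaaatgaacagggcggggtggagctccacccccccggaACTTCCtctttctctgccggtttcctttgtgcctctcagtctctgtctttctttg
Coro1a, chr7:126704787-126704996, minus strand: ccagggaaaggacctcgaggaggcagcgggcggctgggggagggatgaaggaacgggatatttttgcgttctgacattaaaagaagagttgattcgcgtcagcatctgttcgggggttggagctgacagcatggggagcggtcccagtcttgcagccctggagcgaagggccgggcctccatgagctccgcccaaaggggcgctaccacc
Cd3e, chr9:45009582-45009791, minus strand: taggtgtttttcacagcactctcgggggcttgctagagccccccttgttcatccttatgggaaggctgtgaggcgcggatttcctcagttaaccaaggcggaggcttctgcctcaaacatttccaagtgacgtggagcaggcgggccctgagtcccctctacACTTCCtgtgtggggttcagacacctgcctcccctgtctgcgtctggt
GGAAGT holds GGAA, the core recognised by ETS-family transcription factors. It was found on either strand in the full windows, 250 bases before to 50 after the start, of 6 of the 7 members, in 26.6% of all 27025 genes with a window, in 17 of 25 other leukocyte genes, in 6 of 9 T cell genes and in 6 of 12 broadly expressed relatives of the members. Laptm5 and Lcp1 had their matches 63 and 167 bases before the start, and Arhgdib 233 before and 28 after it. In Cd53 the match began 6 bases after the start, in Cd37 25 bases before it and in Cd3e 18 before it, whereas Ptprc had matches 112 and 58 bases before. The string was chosen after the windows were seen, from 7 letter strings. Of the others, GAGGAA was in 5 of the 7 members (31.3% of all genes), AGGAAGT, which contains GGAAGT, in 4 (10.7%), CCGCCC in 4 (38.2%), TATAAA in 3 (15.7%), TGTGGT in 2 (18.9%) and GGAAG, contained in GGAAGT, in 7 (73.9%). The matches are a description, and where a gene had several windows the one with the match nearest the start is printed.

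Transcripts of the pan-leukocyte genes were higher after propionate and butyrate. Of the 10, 8 rose at an adjusted p under 0.05 and 0 fell, where 4.3% of the 14967 genes tested rose and 7.59% fell (limma on log2(TPM + 1), Benjamini-Hochberg adjustment over all tested genes). Their median log2 fold change, treated minus control, was 1.36, beside -0.24 over all tested genes. The groups did not overlap in 6 of the 10, with every treated library above every control, where 4.82% of genes were so. The 10 together made up 0.0574% to 0.127% of TPM in controls and 0.112% to 0.312% in treated libraries, a sum of 831 ± 304 TPM (SD, n = 4) against 1949 ± 1042 (SD, n = 3).

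**Figure D1:**
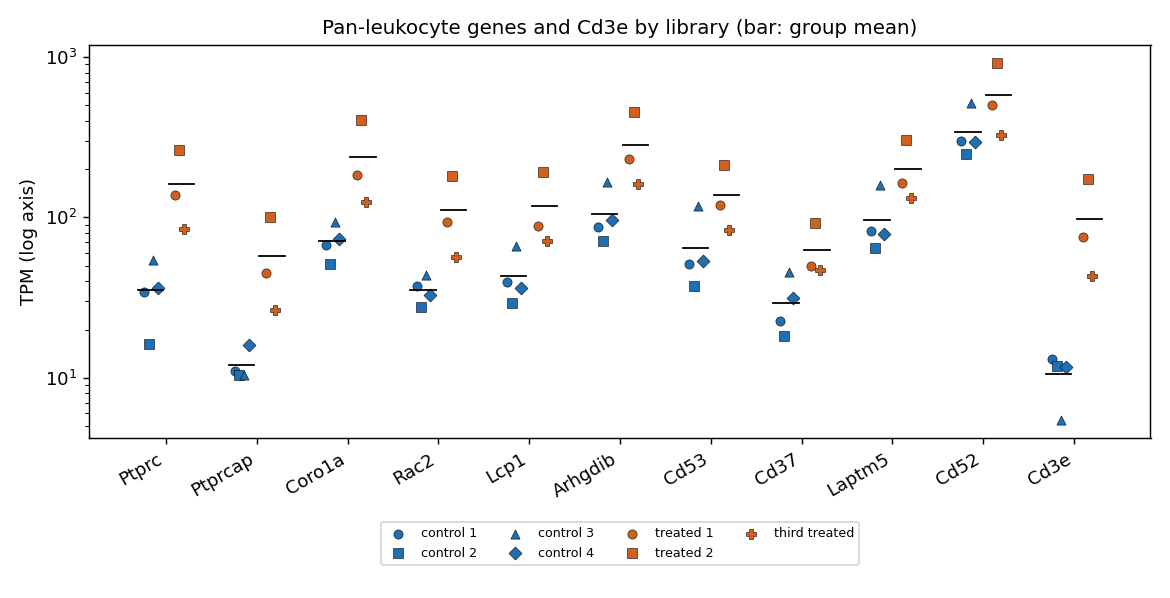
TPM on a log axis of the 10 pan-leukocyte genes and Cd3e in each of the 7 libraries, controls in blue and treated in orange, with a bar at each group mean; genes are ordered by log2 fold change. Every treated library lies above every control for Ptprc, Ptprcap, Coro1a, Rac2, Lcp1, Cd37 and Cd3e, whereas control 3 reaches into the treated range for Arhgdib, Cd53, Laptm5 and Cd52.

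CD45 and its partner had the largest fold changes of the 10. Ptprc stood at 34.3, 16.1, 54.2 and 36.5 TPM in controls 1 to 4, and at 138, 263 and 84.3 TPM in treated 1, treated 2 and the third treated library. The lowest treated library was 1.56 times the highest control. The log2 fold change was 2.13 (SE 0.38, adjusted p = 0.00264, limma), 4.37-fold on the TPM + 1 scale. Ptprcap encodes the transmembrane protein that associates with CD45 in lymphocytes. It stood at 11.1, 10.3, 10.5 and 16.0 TPM in controls and at 45.2, 101 and 26.6 TPM in treated libraries, again without overlap. Its log2 fold change was 1.99 (SE 0.34, adjusted p = 0.00207, limma).

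Cd52 encodes a very short glycoprotein, anchored in the membrane by a lipid and dense on lymphocytes. It was the most abundant member in each library, at 299, 247, 516 and 294 TPM in controls and 503, 915 and 328 TPM in treated libraries. The groups overlapped, since control 3 was above both treated 1 and the third treated library. Its log2 fold change of 0.71 (SE 0.32) was the smallest of the 10 and did not pass the test (adjusted p = 0.152, limma). With 1 library left out each time, it passed only without control 3, at 0.93 (adjusted p = 0.0446, limma). Without control 2 and without treated 2 the log2 fold change was 0.58 and 0.32 (adjusted p = 0.288 and 0.474, limma). Cd52 made up 39.3% to 43.1% of the members' sum in controls and 29.3% to 31.2% in treated libraries.

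Cd53 and Cd37 encode tetraspanins, which gather receptors and integrins into membrane domains, and Cd37 is best known from B cells. Cd53 stood at 51.1, 37.3, 118 and 53.3 TPM in controls and 119, 213 and 83.1 TPM in treated libraries. Control 3 lay within the treated range, and the log2 fold change of 1.11 (SE 0.35) had an adjusted p of 0.0542 by limma. Without control 3 it was 1.44 (adjusted p = 0.000708, limma). Without control 2 and without treated 2 it was 0.9 and 0.74 (adjusted p = 0.105 and 0.155, limma). Cd37 stood at 22.5, 18.1, 45.6 and 31.4 TPM in controls and 49.9, 91.9 and 47.2 TPM in treated libraries. The groups did not overlap, though the lowest treated library was only 1.035 times control 3, and Cd37 rose by 1.09 on the log2 scale (SE 0.30, adjusted p = 0.0314, limma). Leaving out control 2, treated 2 or the third treated library put its adjusted p at 0.0635, 0.103 and 0.078.

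Laptm5 encodes a lysosomal membrane protein that lowers surface antigen receptors by sending them for degradation. It stood at 82.1, 64.6, 160.2 and 79.0 TPM in controls and 163, 305 and 133 TPM in treated libraries. Control 3 lay above the third treated library. The log2 fold change was 1.04 (SE 0.31, adjusted p = 0.0447, limma), and this call was lost in 13 of 20 alternatives, among them leaving out controls 1, 2 or 4 or any 1 treated library.

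Most of the remaining members act on actin. Coro1a encodes coronin 1A, an actin-binding protein needed for T cell survival and traffic. It stood at 67.0, 51.5, 93.5 and 73.4 TPM in controls and 184, 405 and 125 TPM in treated libraries, without overlap, and rose by 1.58 on the log2 scale (SE 0.32, adjusted p = 0.00631, limma). Rac2 encodes the haematopoietic Rac GTPase, which drives actin assembly and, in phagocytes, the oxidase. It stood at 37.4, 27.4, 43.9 and 32.9 TPM in controls and 93.0, 182 and 56.5 TPM in treated libraries. It rose by 1.47 (SE 0.31, adjusted p = 0.00739, limma), also without overlap.

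Lcp1 encodes L-plastin, which bundles actin filaments. It stood at 39.7, 29.2, 66.2 and 36.4 TPM in controls and 88.9, 192 and 71.7 TPM in treated libraries, the lowest treated being 1.08 times the highest control. The rise was 1.37 on the log2 scale (SE 0.32, adjusted p = 0.014, limma). Arhgdib is the haematopoietic sister gene of the broadly expressed Arhgdia. It stood at 86.8, 71.6, 165 and 95.8 TPM in controls and 230, 451 and 161 TPM in treated libraries. Only the third treated library lay below control 3, and the rise was 1.35 (SE 0.33, adjusted p = 0.0163, limma), with an adjusted p of 0.051 without treated 2.

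Each member was highest in treated 2 and, among treated libraries, lowest in the third. Treated 2 was 1.89 to 2.80 times the mean of the other treated libraries across the 10, and 2.91 times for Cd3e. Control 3 was 1.35 to 2.49 times the mean of the other controls in 9 members, while it was 0.839 times that mean for Ptprcap and 0.448 times for Cd3e, a comparison chosen after the values were seen. The highest ratio was that of Cd53 and the next that of Laptm5 (2.13). The same library had the highest macrophage sum, whose part in these values was not tested.

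The number of members that rose was 8 with all libraries, 10 without control 3, 6 without the third treated library (Laptm5, adjusted p = 0.0761, and Cd37 were lost), 10 without both and 5 without treated 2. Of all 14967 genes tested, 643 rose with all libraries, 774 without control 3, 834 without the third treated library and 679 without both. The number over all genes without treated 2 is not given here. Other scalings moved the median log2 fold change of all genes from -0.24 to -0.005 (median of ratios) and -0.06 (mitochondrially encoded genes and 5 copies of them removed), under each of which 9 members rose, with medians of 1.63 and 1.57. Over all genes tested in each setting, 643 rose in the main fit, 1306 with median-of-ratios scaling and 1247 with mitochondrial genes removed. The share of higher among all calls was 36.1%, 57.8% and 46.3% in that order.

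In controls, the mean TPM ran from 339 for Cd52 through 105 for Arhgdib, 96.5 for Laptm5, 71.4 for Coro1a, 64.8 for Cd53, 42.9 for Lcp1, 35.4 for Rac2, 35.3 for Ptprc and 29.4 for Cd37 to 11.96 for Ptprcap. Cd52 and Ptprcap stood apart from their neighbours in this order in all 4 controls, without overlap of their ranges. The ranges of all other neighbours overlapped over libraries. Within libraries, Arhgdib was above Laptm5, Laptm5 above Coro1a, Cd53 above Lcp1 and Lcp1 above Rac2 in all 4 controls. Coro1a was above Cd53 and Ptprc above Cd37 in 3 of 4 controls, and Rac2 was above Ptprc in only 2 of 4. In treated libraries the order began with Cd52 (582), Arhgdib (281) and Coro1a (238), and Ptprc, at 162 TPM, had moved from the eighth place to the fifth. The ranges of all neighbours in the treated order overlapped over libraries. Within libraries, Cd52 was above Arhgdib, Arhgdib above Coro1a, Laptm5 above Ptprc and Ptprc above Cd53 in all 3 treated libraries. Cd53 was above Lcp1 and Rac2 above Cd37 in all 3 as well. Coro1a was above Laptm5, Lcp1 above Rac2 and Cd37 above Ptprcap in 2 of 3.

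Relative to the T cell reference, most members were lower after treatment, as were most of the genes tested. Cd3e stood at 13.1, 11.9, 5.47 and 11.6 TPM in controls and 75.3, 173 and 43.2 TPM in treated libraries. It rose by 2.92 on the log2 scale (SE 0.38, adjusted p = 0.000492, limma). The 10 members together came to 55.9, 48.2, 233 and 64.5 times the TPM of Cd3e in controls 1 to 4, and to 21.4, 18.1 and 25.8 times in treated libraries. All treated values were below all controls. Of single members, 9 of 10 had a lower ratio to Cd3e without overlap, where 94.3% of tested genes did. The exception was Ptprc, at 2.62, 1.36, 9.90 and 3.15 in controls and 1.83, 1.52 and 1.95 in treated libraries.

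**Figure D2:**
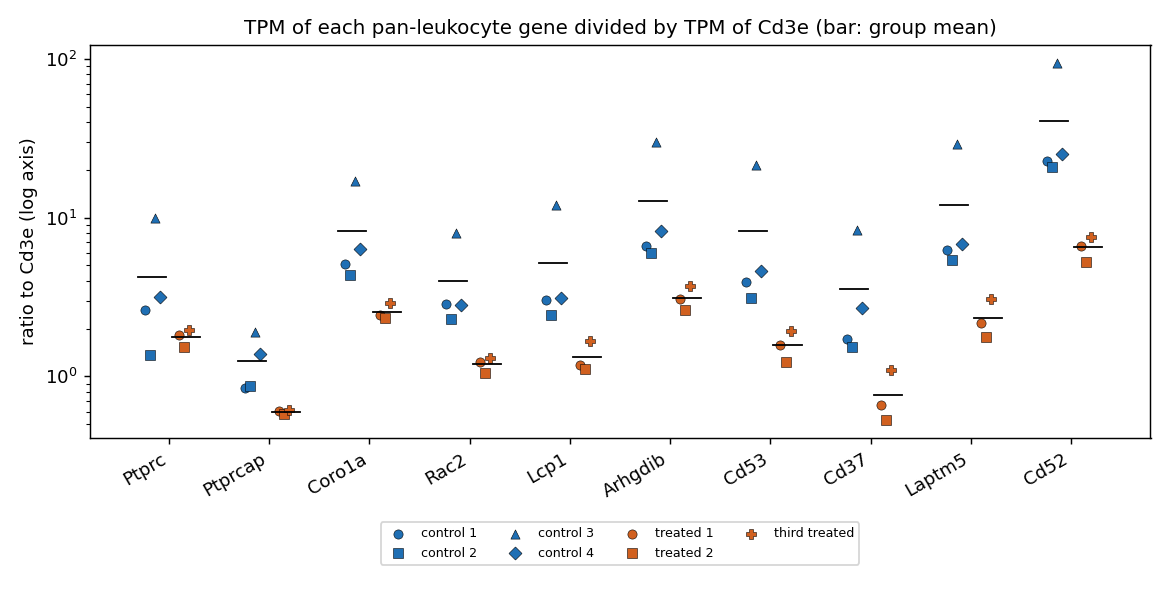
TPM of each member divided by TPM of Cd3e in the same library, on a log axis, with a bar at each group mean, for 4 controls (blue) and 3 treated libraries (orange). Ratios of treated libraries lie below those of all controls for 9 of the 10 genes, control 3 is the highest throughout, and Ptprc overlaps through control 2.

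After log2(TPM + 1) of Cd3e was subtracted in each library, 8 of 10 members were lower at an adjusted p under 0.05 by limma, where 98.1% of tested genes were, so that the members' share lay below that of all genes. Cd52 differed most from Cd3e (log2 difference -2.21, SE 0.58, adjusted p = 0.000148), followed by Laptm5 (-1.88), Cd37 (-1.83) and Cd53 (-1.81). Ptprc (-0.79, SE 0.58, adjusted p = 0.171) and Ptprcap (-0.94, SE 0.58, adjusted p = 0.11) did not pass. The count was 7 without control 3, where Coro1a was lost (-0.95, adjusted p = 0.0785), 8 without the third treated library and 6 without both, where Rac2 was lost too (adjusted p = 0.0507). The share of all genes called lower is given only for all libraries, so whether it changed as well cannot be read from these counts. In this fit each gene carries the spread of Cd3e and the SE was nearly the same for all (0.58 to 0.67), so the adjusted p are optimistic. An exact two-sided permutation test over the 35 divisions of the libraries, added after the data were seen, called 3 members (Cd52, Laptm5 and Rac2, each with an adjusted p of 0.0299), where 95.7% of genes were called lower. The smallest p that this test can give is 0.0286, and 14315 of the 14966 genes reached it in the lower direction. An adjusted p under 0.05 was possible only because so many genes did. The permutation test was run only relative to a reference, not for treated against control.

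CD45 was used as a second reference. Ptprc had the largest log2 fold change of the 10, so with all libraries the mean log2 difference of every other member from it had to be negative. TPM of Cd52 was 8.72, 15.3, 9.52 and 8.06 times that of Ptprc in controls, and 3.66, 3.48 and 3.89 times in treated libraries. Of the other 9 members, 8 had a lower ratio to Ptprc without overlap, where 91.9% of genes did, and Ptprcap, at 0.323, 0.641, 0.193 and 0.437 against 0.329, 0.382 and 0.315, overlapped. Relative to Ptprc, limma called 1 member lower, Cd52 (-1.42, SE 0.60, adjusted p = 0.0189), where 95.5% of genes were called lower. Each gene here carries the spread of Ptprc (SE 0.56 to 0.72 over all genes), so these adjusted p are optimistic too. The exact permutation test called 5 (Cd52, Laptm5, Arhgdib, Cd53 and Cd37, adjusted p = 0.0318 each), where 89.8% of genes were. All 5 were at the smallest p this test can give, 0.0286, which 13442 of the 14966 genes reached in the lower direction. The call of Cd52 by limma was lost without treated 1 (adjusted p = 0.0641), and limma called 4 members without control 2.

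Many of the members have a sister gene that cells outside the blood also use. Of 15 such relatives, 14 passed the filter (Pls1, the plastin of intestinal brush borders, did not), and 0 rose, 6 fell and 8 did not pass the test, with a median log2 fold change of -0.64. The 6 were the tetraspanins Cd9 (-0.78), Cd151 (-0.78) and Cd63 (-0.75), the plastin Pls3 (-0.75), the receptor phosphatase Ptprf (-0.72) and Laptm4b (-0.68). Rac1, the broadly expressed Rac, was at 237 ± 27.3 TPM (SD, n = 4) in controls and 205.5 ± 47.8 (SD, n = 3) in treated libraries, with a log2 fold change of -0.23. In 9 of the 14 every treated library lay below every control, where 25.7% of all genes did. With median-of-ratios scaling only Cd9 fell, and Rac1 turned to 0.04. With mitochondrial genes removed 6 fell, of which Cd81 and Coro1b were in place of Cd63 and Pls3. Without control 3, without the third treated library and without both, only Cd9 fell.

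The values of Coro1b, Coro1c, Laptm4a, Arhgdia, Cd81, Cd82 and Ptpra did not pass the test, with log2 fold changes of -0.59, -0.37, -0.48, -0.28, -0.70, -0.31 and -0.36. In ratios of a member to its relative, 14 pairs formed after the values were seen and given without a test, the treated libraries were above the controls in each pair. Members had log2 fold changes above 0 and these relatives below 0, so the direction of the ratios follows from values already given. No share over other gene pairs is given. TPM of Rac2 was 0.107 to 0.176 times that of Rac1 in controls and 0.374 to 0.756 times in treated libraries. TPM of Ptprc was 0.263 to 1.07 times that of Ptprf in controls and 3.35 to 9.34 times in treated libraries. Coro1a, below Coro1b in all controls at 0.149 to 0.278 times, stayed below it in 2 treated libraries and reached 1.91 times in treated 2.

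**Figure D3:**
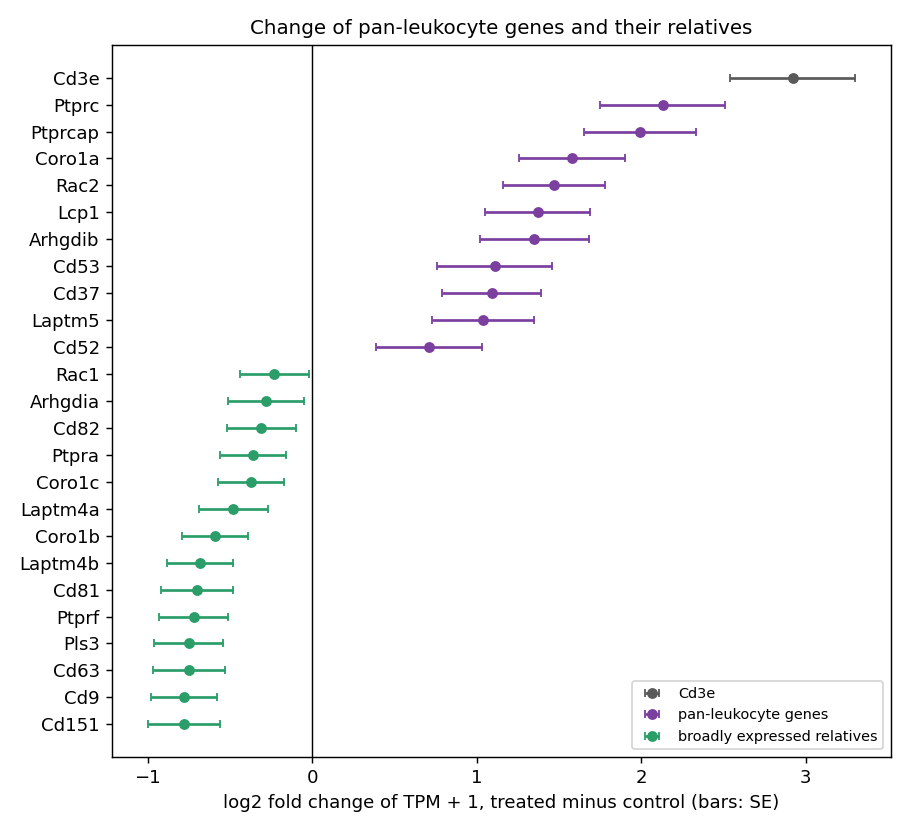
Log2 fold change of TPM + 1, treated minus control, with bars of 1 SE, for Cd3e (grey), the 10 pan-leukocyte genes (purple) and 14 broadly expressed relatives (green). The members lie between 0.71 and 2.13, below Cd3e at 2.92, and the relatives between -0.78 and -0.23.

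Of a further 33 genes found across leukocytes, 21 rose, 0 fell and 12 did not pass the test, with a median log2 fold change of 1.10. The number that rose was 29 without control 3, 18 without the third treated library and 23 without both. The highest values were those of Itgal (2.10), the alpha chain of the integrin LFA-1, Ikzf1 (1.99), the lymphoid transcription factor Ikaros, Wipf1 (1.82), a partner of the Wiskott-Aldrich protein, Rhoh (1.77), a GTPase of T cell receptor signalling, and Sash3 (1.72), a lymphocyte adaptor. The lowest were Evi2a (0.11), Cotl1 (0.26), a coactosin that binds actin, Ptpn6 (0.46), the phosphatase SHP-1, Inpp5d (0.63), the lipid phosphatase SHIP1, and Fermt3 (0.67), the integrin activator kindlin-3, of which 0 passed the test with all libraries. Itgal stood at 6.88 to 10.9 TPM in controls and 22.9 to 77.8 TPM in treated libraries. Evi2a stood at 8.88 to 34.1 TPM in controls and 12.2 to 25.1 TPM in treated libraries.

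The genes whose pattern over the 7 libraries was most like the mean of the 10 members, by root mean square difference of centred log2(TPM + 1), were Tmc8 (0.078), Dock2 (0.085), Parvg (0.107), Bin2 (0.112), Lpxn (0.115), Pik3r5 (0.121), Was (0.123) and Arhgap30 (0.124). Dock2 activates Rac in leukocytes and Was encodes the Wiskott-Aldrich protein, which starts branched actin. Among the members themselves Arhgdib (0.071) and Lcp1 (0.093) lay closest to that mean, while Ptprcap (0.468), Ptprc (0.425) and Cd52 (0.344) lay farthest. Dock2 stood at 12.4 ± 5.12 TPM (SD, n = 4) in controls and 34.3 ± 15.9 (SD, n = 3) in treated libraries.

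Marker lists of single cell types were set beside the members. All 15 T cell genes rose, also without control 3, the third treated library or both, with a median log2 fold change of 2.85 in all libraries, while of the 15 macrophage and monocyte genes 0 rose, 3 fell (Apoe, Fcgr1 and Fcgr3) and 12 did not pass. Of these, 1 fell under each other scaling. The number that fell was 1 (Apoe) without control 3, where Ccr2 rose, 0 without the third treated library (5 at an unadjusted p under 0.05, limma) and 1 (Apoe) without both. The summed TPM of 12 genes of epithelium and mesothelium was 2301 to 2760 in controls and 869 to 1660 in treated libraries, and of the 11 tested 7 fell, 5 under each other scaling and 3 to 6 without control 3, the third treated library or both. The members' sum was 2.75 to 9.0 times the T cell sum in controls and 1.07 to 1.62 times in treated libraries, and 0.0832 to 0.119 times the macrophage sum in controls and 0.262 to 0.895 times in treated libraries. B cell genes (0 of 8) and neutrophil genes (0 of 5 tested) did not pass the test. Of 5 tested dendritic cell genes 2 rose, Ccr7 (1.71) and Siglech (0.93). Ccr7, like Cd3e, was lowest in control 3 (6.64 TPM), and it stood at 31.0, 47.4 and 14.4 TPM in treated libraries. Which cells gave its transcripts was not tested. Siglech was low, at a mean of 1.09 TPM in controls and 3.18 in treated libraries. The others, Clec9a (0.07), Cd209a (-0.4) and Zbtb46 (-0.42), did not pass. All 4 tested erythroid genes fell (median -2.13), their list summing to 246 ± 179 TPM (SD, n = 4) in controls and 47.2 ± 32.7 (SD, n = 3) in treated libraries, and 2 fell under each other scaling. All 4 fell without control 3, whereas limma called 0 without the third treated library and 0 without both (3 at an unadjusted p under 0.05 in each). Of 5 tested fibroblast genes 4 fell, with list sums of 282 to 322 TPM in controls and 115 to 227 in treated libraries, and 2 fell under each other scaling. The number was 3 without control 3, 1 without the third treated library and 0 without both (4 at an unadjusted p under 0.05, limma). Of 2 tested endothelial genes 1 fell, Flt1. The list of natural killer cell genes summed to 22.9 to 45.2 TPM in controls and 138 to 610 in treated libraries, and its only tested gene, Nkg7, which cytotoxic T cells also express, rose (2.92). Nearly all of the sum was Nkg7, at 20.6 to 43.0 TPM in controls and 135 to 602 in treated libraries. The other genes of that list stood at 2.96 TPM or lower in every library. The part of these cell types in the members' values was not tested.

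**Figure D4:**
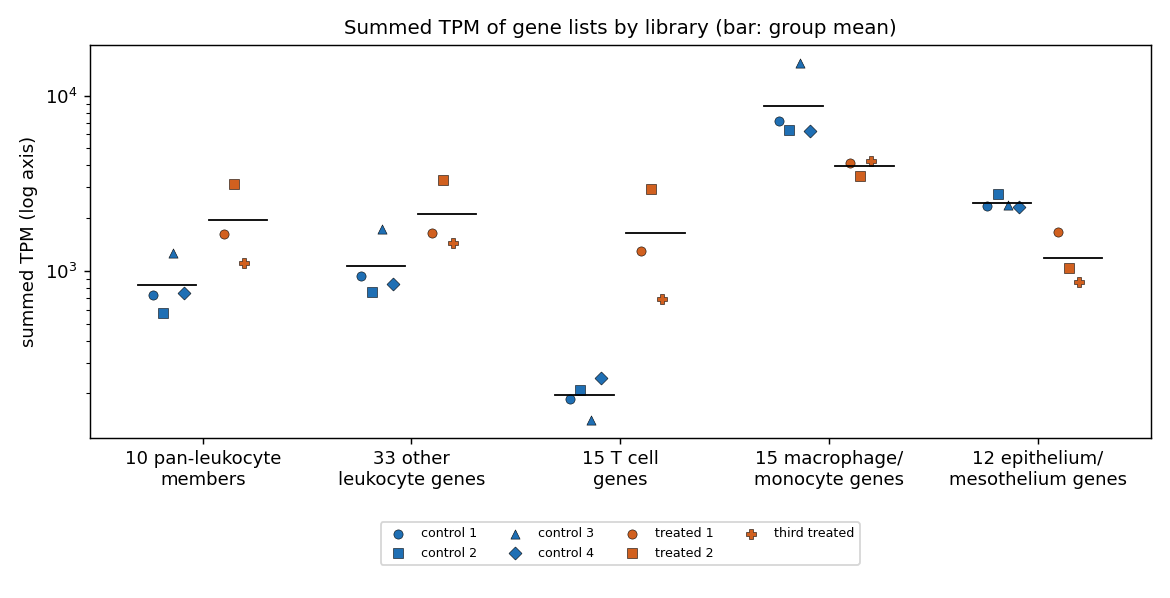
Summed TPM on a log axis of 5 gene lists in each library, controls in blue and treated in orange, with a bar at each group mean. T cell sums are 141 to 246 in controls and 689 to 2921 in treated libraries, macrophage and monocyte sums are highest in control 3 (15300), and member sums of treated libraries (1116 to 3118) overlap those of controls (574 to 1273).

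The transcript rows behind the sums differed between members. Cd53 had 1 row, and in Cd52 a single row held 99.5% to 99.8% of the TPM in each library. Ptprc, a gene known for alternative splicing of its outer domain, had 13 rows, all above 0, of which the largest held 36.1% to 56.7%. With the largest row alone in place of the sum, 7 members rose, and Laptm5 was not called (0.93, adjusted p = 0.0762). Laptm5 and Lcp1 overlap annotated long non-coding RNAs in GRCm38, and no source used here says whether strand was used in counting. The transcript overlapping Lcp1, Gm15628, was listed at 0 in all libraries.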

How the data were processed

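TPM values of 149132 transcript rows, with gene symbols, came from 1 table deposited by the authors for 7 libraries. The submitters' processing notes name fastp, HISAT2, StringTie and the build mm39, without versions, and no source used here names the program behind the TPM values. TPM holds no depth, so counting error could not be computed. Per the labels' protocols the libraries were stranded and poly(A)-selected. Columns were matched by name, and 0 other columns held values. TPM was summed over the rows of each symbol, and 1001 unnamed rows (0.307% to 0.618% of TPM) were dropped. The 14967 genes that reached a TPM of 1 in 3 or more libraries were taken to log2(TPM + 1), which understates the change of low genes. Groups were tested with limma 3.58.1 (R 4.3.3), with an intensity trend, Benjamini-Hochberg adjustment over all tested genes and a threshold of 0.05. The same fit was run after subtracting log2(TPM + 1) of Cd3e or of Ptprc in each library.

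The members and gene lists were chosen with earlier results of these data known. Named are the 10 members, Cd3e, the tested relatives and the 5 highest and 5 lowest of the other leukocyte genes. Also named are the 8 genes most like the members and the 2 most abundant genes of marker lists. Fcgr1, Fcgr3, Ccr2, Flt1, Siglech, Clec9a, Cd209a and Gm15628 were named after their values were seen. Alternatives changed the pseudocount, filter, variance model, library weights, replicate block, scaling, reference, transcript rows and threshold, and dropped single libraries. The exact permutation test, the removal of control 3 with the third treated library, the list counts without these libraries, and the choice of the 5 mitochondrial copies removed were settled with the data in view.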

Additional observations from a re-analysis of the deposited data

Results flagged for a closer look

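In the 4 controls, 68 values were examined for 1 library far from the others, and 11 were set apart, where chance sets apart about 1 in 20. Ptprcap was at 15.97 TPM in control 4, against 10.34 to 11.08 in the other controls. The other values were all highest in control 3. The macrophage and monocyte sum was 15300 TPM there, against 6284 to 7155 in the other controls, and Was was at 15.55 TPM, against 6.75 to 8.21. Of ratios to Cd3e, which share its TPM of 5.47 in that library, those of Cd52 (94.3), Arhgdib (30.2), Laptm5 (29.29), Cd53 (21.49), Coro1a (17.1), Lcp1 (12.11), Rac2 (8.02) and the sum of the 10 members (232.65) stood apart. In the other controls the Cd52 ratio was 20.8 to 25.4 and that of the sum 48.2 to 64.5.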

How the results depend on the processing

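All values concern the number of members past the threshold, out of 10 (9 relative to Ptprc), unless a gene is named. Against control, 8 members rose. None passed without a filter on low values (0 by limma, 9 at an unadjusted p under 0.05), 4 with robust variance and 4 at a threshold of 0.01, and leaving out 1 library each gave 5 to 10. In all 20 alternatives the log2 fold change of each member stayed above 0. Relative to Cd3e, 8 were lower, 3 by the exact permutation test and 7 to 8 with 1 library left out each. Relative to Ptprc, 1 was lower, 9 with array weights, which did not fully converge in 2 fits, 5 by the exact permutation test, 0 without control 3 and the third treated library together (0 by limma, 0 at an unadjusted p under 0.05), and 0 to 4 with 1 library left out each. The difference of Ptprcap from Ptprc, -0.14, became 0.12 without control 2 and ran from -0.44 to 0.12 with 1 library left out each. The causes were not tested. With the replicate number as a block, on numbers 1 and 2 only, limma called 10 members against control, 0 relative to Cd3e and 0 relative to Ptprc (0 in both at an unadjusted p under 0.05), in a fit of 4 libraries. The labels link same-numbered libraries by nothing but the number. Deviations of same-numbered libraries correlated at -0.019 and -0.09, and those of differently numbered libraries at 0.168 and 0.033. So few values cannot decide whether libraries were paired. Where a library was left out, the filter of all 7 libraries was kept. TPM gives no depth, so what depth limits could not be assessed.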
